A study of Homo sapiens with 16 samples.

Results

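The genes of the mitochondrial ribosomal proteins were taken as the protein-coding genes of a RefSeq table of the human build hg38 whose symbol begins with MRPL or MRPS followed by a number. This rule found 77 of 20037 protein-coding genes, 49 with an MRPL symbol (large subunit) and 28 with an MRPS symbol (small subunit), and it used no measured value. The symbols matched the label, although MRPS18A and MRPS30 are known as proteins of the large subunit despite their names. A member held a boundary peak if the summit of a peak, its highest point, was no more than 1 kb from the start or the end of the gene. The peaks came from chromatin immunoprecipitation with sequencing (ChIP-seq) in HEK293T, a cell line of human embryonic kidney origin. HDGF, which binds chromatin through its PWWP domain, was precipitated from cells kept for 24 h without glucose and from cells given a control depletion. INTS13, a subunit of the Integrator complex, was precipitated from cells kept for 24 h without glucose, from cells depleted of HDGF for 72 h with a pool of small interfering RNAs, and from cells given a control depletion. The series asked whether INTS13 changes its place on the genome in starvation or when HDGF is removed. The labels do not say that the starved cells were given a control depletion, so starved and control cells may differ in that step too. The HDGF antibody had 1 supplier (Proteintech) in both HDGF groups. The INTS13 antibody came from Proteintech in starved cells and from Bethyl in HDGF-depleted and control cells, so starvation and antibody cannot be told apart for INTS13.

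The mitochondrial ribosome makes the few membrane proteins of the oxidative phosphorylation system that are encoded by mitochondrial DNA. All of its proteins are encoded in the nucleus, made in the cytosol and imported. Some descend from bacterial ribosomal proteins and others were added in the mitochondrial lineage, and by the names in use 45 of the 77 have a bacterial counterpart and 32 do not. Integrator is known for cleaving nascent RNA, at snRNA genes and at promoters where RNA polymerase II has paused close to the start site. Promoters of such housekeeping genes usually lack a TATA box, and many face a neighbouring gene on the opposite strand.

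Each ChIP group had 2 labelled replicates and 1 deposited peak list, so no value has a replicate error and no test between conditions was possible. The lists held 68138 peaks for HDGF in starvation and 106674 in control. They held 15639 peaks for INTS13 in starvation, 105994 after HDGF depletion and 31233 in control. The depth of the libraries was read from the fold and p-value of each peak, which followed a Poisson distribution with 1 background per list. The mean that gave the p-values was 7.41 in both starvation lists and 6.69 for HDGF in control. For INTS13 it was 4.20 after depletion and 6.40 in control. In the starvation lists a read counted as 0.753 for HDGF and 0.486 for INTS13, and in the other lists as 1. Before this scaling the background was 9.84 reads per position for HDGF in starvation and 15.2 for INTS13 in starvation. Read counts at summits are also given before scaling. Within each protein the list with the lower background was the longer one.

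Promoter windows are shown for the members with INTS13 near the start in control or starved cells. For 69 of the 77 members a start site and strand were given by the RefSeq promoter table (GRCh38.p14), and no start is listed there for MRPL2, MRPL10, MRPL13, MRPL15, MRPL21, MRPL23, MRPL35 and MRPS28. At 7 members an INTS13 summit in control or starved cells lay within 100 bp of a listed start, a limit chosen after the distances were seen. Their windows run from 250 bases before the start to 50 bases after it, in the direction of transcription. On GRCh38.p14 they are MRPS35 at chr12:27710582-27710881 (plus strand), MRPS7 at chr17:75261629-75261928 (plus), MRPL14 at chr6:44127259-44127558 (minus), MRPL39 at chr21:25607432-25607731 (minus), MRPL9 at chr1:151763447-151763746 (minus), MRPS27 at chr5:72320191-72320490 (minus) and MRPL37 at chr1:54199917-54200216 (plus). Capitals mark matches, on either strand, to the letters GGGCGG (SP factors) or CCAAT (NF-Y). No other searched motif matched in these 7 windows, and none matched in that of MRPL9.
MRPS35: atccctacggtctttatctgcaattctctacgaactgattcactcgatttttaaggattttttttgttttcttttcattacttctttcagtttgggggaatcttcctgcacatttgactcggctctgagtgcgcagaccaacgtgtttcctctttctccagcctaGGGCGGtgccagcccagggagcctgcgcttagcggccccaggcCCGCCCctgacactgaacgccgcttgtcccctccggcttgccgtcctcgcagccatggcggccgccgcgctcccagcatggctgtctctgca
MRPS7: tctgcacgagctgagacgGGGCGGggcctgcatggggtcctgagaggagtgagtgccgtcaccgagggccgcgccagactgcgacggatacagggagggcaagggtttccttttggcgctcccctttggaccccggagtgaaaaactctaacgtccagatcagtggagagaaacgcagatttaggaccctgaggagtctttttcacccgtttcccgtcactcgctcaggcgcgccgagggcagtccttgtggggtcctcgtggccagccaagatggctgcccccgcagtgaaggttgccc
MRPL14: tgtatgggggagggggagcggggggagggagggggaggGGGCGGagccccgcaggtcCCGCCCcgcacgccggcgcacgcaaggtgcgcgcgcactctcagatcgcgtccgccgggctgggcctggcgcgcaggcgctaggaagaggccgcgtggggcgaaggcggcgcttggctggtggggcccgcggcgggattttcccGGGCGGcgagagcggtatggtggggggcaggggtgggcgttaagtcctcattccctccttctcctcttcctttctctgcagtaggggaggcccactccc
MRPL39: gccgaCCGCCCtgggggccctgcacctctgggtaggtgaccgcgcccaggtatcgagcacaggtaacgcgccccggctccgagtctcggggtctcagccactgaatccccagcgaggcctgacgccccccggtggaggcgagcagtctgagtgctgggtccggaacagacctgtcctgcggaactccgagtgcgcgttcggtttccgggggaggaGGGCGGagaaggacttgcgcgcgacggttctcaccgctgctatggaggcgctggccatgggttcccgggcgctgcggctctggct
MRPL9: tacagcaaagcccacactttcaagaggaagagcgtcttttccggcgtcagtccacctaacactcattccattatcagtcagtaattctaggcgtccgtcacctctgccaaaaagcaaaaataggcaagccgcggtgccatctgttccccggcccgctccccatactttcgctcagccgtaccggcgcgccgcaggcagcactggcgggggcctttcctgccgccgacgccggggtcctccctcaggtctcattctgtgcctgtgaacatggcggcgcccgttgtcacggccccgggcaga
MRPS27: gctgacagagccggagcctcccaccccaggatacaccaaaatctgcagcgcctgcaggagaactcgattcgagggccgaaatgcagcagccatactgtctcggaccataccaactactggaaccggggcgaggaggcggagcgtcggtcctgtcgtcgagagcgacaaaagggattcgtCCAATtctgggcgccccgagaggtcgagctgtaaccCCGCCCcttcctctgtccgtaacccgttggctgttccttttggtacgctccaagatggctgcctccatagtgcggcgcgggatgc
MRPL37: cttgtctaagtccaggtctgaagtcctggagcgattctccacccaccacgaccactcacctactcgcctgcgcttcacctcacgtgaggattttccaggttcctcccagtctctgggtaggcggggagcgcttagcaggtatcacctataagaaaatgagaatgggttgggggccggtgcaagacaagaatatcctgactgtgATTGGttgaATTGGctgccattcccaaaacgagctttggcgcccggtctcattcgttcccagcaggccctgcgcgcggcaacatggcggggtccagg

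Of 8 motifs searched on both strands of these windows, several were frequent in the gene class. The ETS letters CCGGAAG stood in 38.8% of 85 member windows, against 12.8% of 22199 windows of protein-coding genes. The YY1 letters AAGATGGCG stood in 15.3% of member windows, against 2.41% of coding windows. The letters ACTACAA, part of the site of ZNF143 and THAP11, stood in 9.41% of member windows, against 2.84%. GGGCGG stood in 51 of the 85 member windows, against 56.3% of coding windows, and CCAAT in 32.9%, against 34.7%. TATAAA stood in 3.53% of member windows, against 9.47%. The NRF1 site and the EGR1 letters GCGTGGGCG each matched in 1 of the 69 members. GC content had a median of 60.3% in member windows and 62.3% in coding windows.

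None of the 7 members with INTS13 at the start site had the exact ETS or YY1 letters in a listed window, while 30 of the 69 members had the ETS letters and 13 of the 69 the YY1 letters. Only exact letters were searched, so close variants were not counted. The windows of MRPS7 and MRPS27 hold aagatggct and those of MRPL9 and MRPL37 hold aacatggcg, each a single letter from the YY1 letters. GGGCGG was present in 5 of the 7. The 30 members with ETS letters held 0 of the 7 INTS13 boundary peaks in control cells, and 1 of the 6 in starved cells. After HDGF depletion 8 of the 30 had an INTS13 boundary peak, against 17 of the 39 members without ETS letters. Of the 4 members with a depletion summit within 100 bp of a start, 2 had the ETS letters (MRPL43 and MRPL51) and 1 the YY1 letters (MRPL46). For HDGF, 14 of the 30 members with ETS letters had an HDGF boundary peak in starvation and 16 in control, against 12 and 14 of the 39 members without them. Other motifs split the HDGF control peaks too. They were at 23 of 42 members with GGGCGG, against 7 of 27 without it. With the YY1 letters they were at 2 of 13 members, against 28 of 56. These splits were not counted over all protein-coding genes, so none can be called particular to the class. For contrast, 2 windows with both ETS and YY1 letters are given, chosen after their values were seen. MRPL52, at chr14:22829637-22829936 (plus strand), had no boundary peak in any list. MRPS18A, at chr6:43687742-43688041 (minus), had HDGF boundary peaks and no INTS13 boundary peak. Capitals mark the ETS and YY1 letters in both, and in MRPS18A also the SP and NF-Y letters and those shared by ZNF143 and THAP11.
MRPL52: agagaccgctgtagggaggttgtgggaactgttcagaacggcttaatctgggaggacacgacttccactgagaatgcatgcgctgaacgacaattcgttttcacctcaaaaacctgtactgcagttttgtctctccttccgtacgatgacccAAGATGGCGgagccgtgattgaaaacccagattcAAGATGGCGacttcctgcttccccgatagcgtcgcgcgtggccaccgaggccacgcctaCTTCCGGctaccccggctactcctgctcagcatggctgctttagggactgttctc
MRPS18A: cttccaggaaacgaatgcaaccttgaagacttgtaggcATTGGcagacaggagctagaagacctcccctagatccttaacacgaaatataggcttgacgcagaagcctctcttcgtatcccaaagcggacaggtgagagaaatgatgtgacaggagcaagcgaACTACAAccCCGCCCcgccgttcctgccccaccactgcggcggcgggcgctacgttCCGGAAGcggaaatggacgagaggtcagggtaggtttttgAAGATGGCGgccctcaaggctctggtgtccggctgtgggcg

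In the full lists HDGF lay at the boundaries of a larger share of mitochondrial ribosomal protein genes than of protein-coding genes as a whole, in both conditions. A boundary peak was present at 26 of the 77 members in starved cells (33.8%, interval 23.4 to 45.4) and at 32 of the 77 in control cells (41.6%, interval 30.4 to 53.4). Over all protein-coding genes the shares were 21.7% in starved cells and 19.3% in control cells. All intervals are exact (Clopper-Pearson) 95% intervals and cover counting error only. In lists cut to the strongest 15639 peaks, HDGF was at 9 members in starvation (11.7%, interval 5.49 to 21.0), against 6.85% of all genes, and at 4 in control (5.19%, interval 1.43 to 12.8), against 3.77%, so at equal length no difference from all genes was detectable. With a window of 500 bp the shares over all genes were likewise inside the members' intervals (20.8% against 13.4% in starvation, 16.9% against 10.6% in control). With start sites only, HDGF was at 21.7% of 69 members in starvation (interval 12.7 to 33.3), against 15.4%, and at 27.5% in control (interval 17.5 to 39.6), against 12.6%. INTS13 was at 6 members in starved cells (7.79%, interval 2.91 to 16.2), against 6.71% of all genes, a share near the background. INTS13 was at 27 members after HDGF depletion (35.1%, interval 24.5 to 46.8), against 19.1% of all genes. In lists of equal length the depletion share was 7.79% (interval 2.91 to 16.2), against 3.73%. With 500 bp it was 18.2% (interval 10.3 to 28.6), against 11.8%. Under both settings the share over all genes was inside the members' interval. In control cells INTS13 was at 7 members (9.09%, interval 3.73 to 17.8), against 4.77% of all genes. Altogether 47 of the 77 members had a boundary peak in at least 1 list, against 38.6% of all protein-coding genes.

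**Figure D1:**
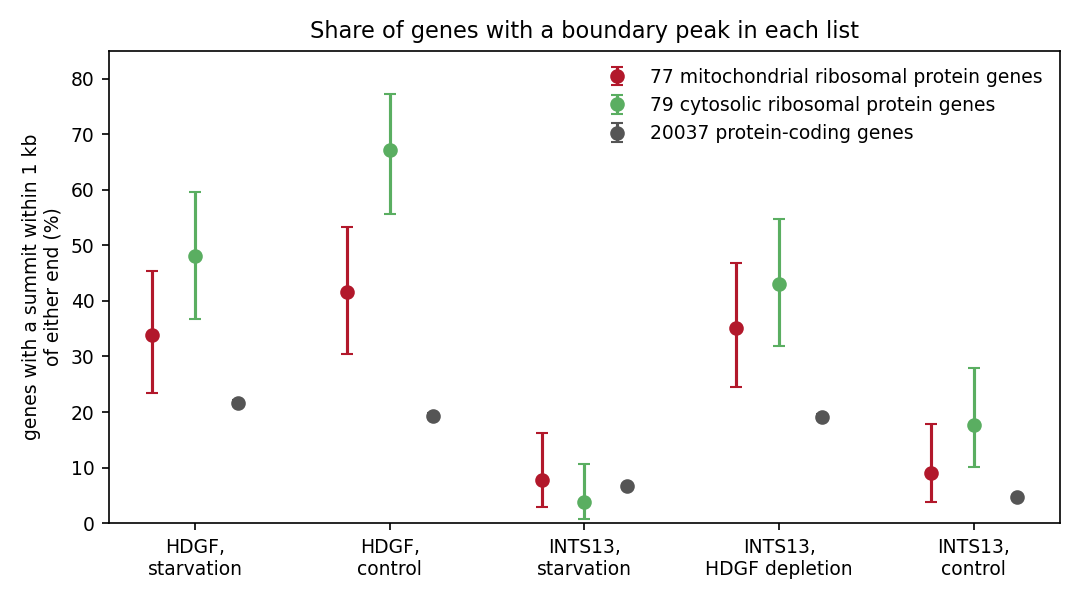
Share of genes with a summit within 1 kb of either end (vertical axis, percent) in each of the 5 lists, for the 77 mitochondrial ribosomal protein genes (red), the 79 cytosolic ribosomal protein genes (green) and all 20037 protein-coding genes (grey). Bars are exact 95% intervals for counting error. Mitochondrial members stand at 33.8% and 41.6% in the HDGF lists and at 7.79% and 9.09% in the INTS13 lists of starved and control cells.

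By subunit and by origin the shares differed by less than their counting intervals. In the HDGF starvation list 16 of 49 MRPL genes and 10 of 28 MRPS genes had a boundary peak, and in the HDGF control list 19 of 49 and 13 of 28. Genes of proteins with a bacterial counterpart had HDGF at 14 of 45 in starvation and 19 of 45 in control, and those without one at 12 of 32 and 13 of 32. For INTS13 after depletion the counts were 17 of 49 MRPL genes and 10 of 28 MRPS genes.

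The members' peaks were modest in height. In the HDGF lists the fold over background at the summit, which is the authors' value, of the strongest boundary peak had a median of 2.98 over the 26 members in starvation and 2.99 over the 32 members in control, against 2.98 and 2.86 over all protein-coding genes with a boundary peak. In the INTS13 lists it had a median of 3.30 over 6 members in starvation, 3.46 over 27 after depletion and 3.92 over 7 in control. The same medians over all protein-coding genes with a peak were 3.18, 3.27 and 3.24. A member's summit held 51 to 69 reads in the INTS13 starvation list, 13 to 28 after depletion and 21 to 35 in control. Such counts carry wide counting intervals: the 35 reads at MRPS35 in control cells, the most of any member there, have an exact Poisson interval of 24.4 to 48.7.

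**Figure D2:**
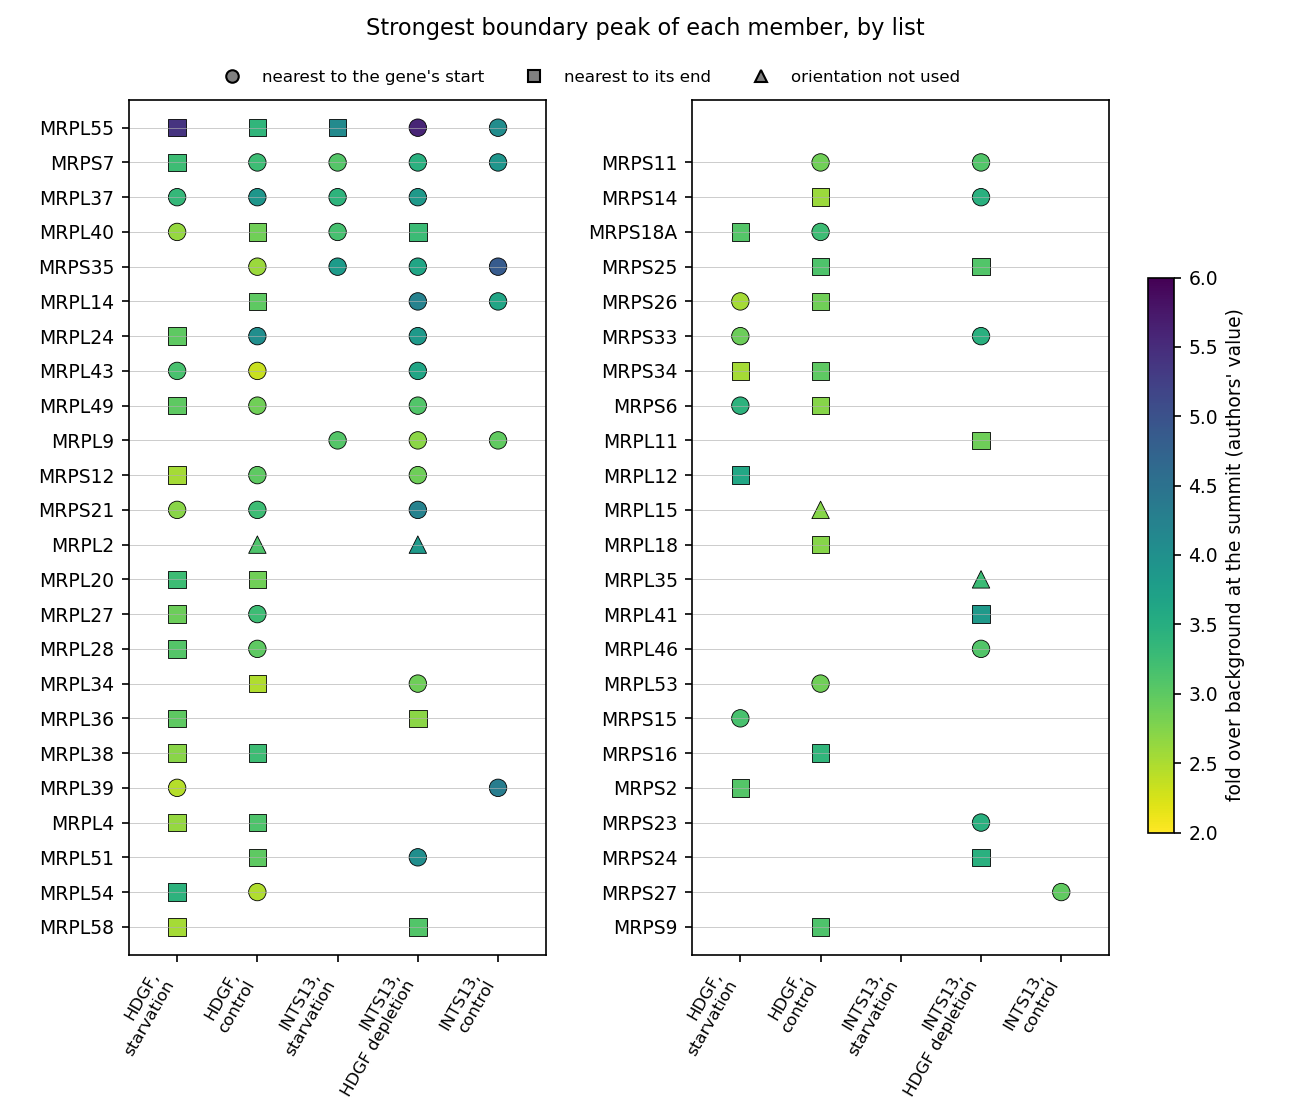
Strongest boundary peak of each of the 47 members with a peak (rows, in 2 columns) in each list (horizontal axis), coloured by the authors' fold over background. Circles lie nearest to the gene's start, squares nearest to its end, and triangles mark genes for which no start is listed. MRPL55 and MRPS7 have a symbol in all 5 lists.

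INTS13 summits at these genes were next placed by their distance from the start, with the limit of 100 bp chosen after the distances were seen. In control cells 7 members had an INTS13 summit within 1 kb of a listed start, and at 6 of them it lay within 100 bp, always just inside the gene. The summit was 14 bp from the start of MRPL39, 22 bp at MRPL14, 24 bp at MRPL9, 27 bp at MRPS7, 51 bp at MRPS27 and 65 bp at MRPS35, and 589 bp at MRPL55. Over all 627 protein-coding genes with such a summit, 32.2% had it within 100 bp. The members' share was 85.7% (interval 42.1 to 99.6), and since these distances set the limit it is given as a description. For genes with 1 start and 1 summit, evenly spread summits would put 10.0% within 100 bp. Where a gene had more starts or summits the nearest pair was taken, so the even share is then higher. Over all 15842 protein-coding genes with a listed start, 3.96% had an INTS13 control summit within 1 kb of it and 1.28% within 100 bp.

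These 6 genes stand for both subunits. MRPS35 belongs to the mitochondrial additions to the small subunit and had the highest INTS13 control peak of the class (fold 4.86, 35 reads, −log10 q of 10.9). MRPL39, a large-subunit protein related to threonyl-tRNA synthetases, had a fold of 4.32 with 31 reads. MRPS7, an rRNA-binding protein of the small-subunit head, had a fold of 3.92 with 28 reads. MRPL14, which lies at the interface between the subunits, had a fold of 3.65 with 26 reads. MRPL9 and MRPS27, a pentatricopeptide repeat protein, each had a fold of 2.97 with 21 reads.

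In starved cells INTS13 was again at the start sites, at fewer of the same genes. The starvation summit lay 30 bp inside MRPL9, 61 bp inside MRPS35, 63 bp inside MRPS7 and 66 bp inside MRPL37, a large-subunit protein without a bacterial counterpart. It lay 248 bp before a start of MRPL40 and 456 bp before the start of MRPL55. Thus 4 of 6 members had it within 100 bp (66.7%, interval 22.3 to 95.7), against 42.6% of 1006 protein-coding genes with a summit within 1 kb of the start, a share inside the members' interval. Those 1006 are 6.35% of the genes with a listed start, and 2.71% had the summit within 100 bp. At MRPL9, MRPS35 and MRPS7 the starvation and control summits were 6, 4 and 36 bp apart.

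After HDGF depletion INTS13 summits were spread more widely around the starts. The summit was within 100 bp of the start at 4 of 18 members (22.2%, interval 6.41 to 47.6), against 17.8% of 2444 protein-coding genes, again inside the interval. Of the genes with a listed start, 15.4% had a depletion summit within 1 kb and 2.75% within 100 bp. These 4 were MRPL43 at -1 bp, MRPL14 at -16 bp, MRPL46 at 36 bp and MRPL51 at 96 bp, where negative values lie before the start. Of the 6 genes with a control summit within 100 bp of the start, only MRPL14 had one there after depletion. The depletion summit lay at -187 bp at MRPS35, at 255 bp at MRPS7 and at -644 bp at MRPL9, and MRPL39 and MRPS27 had no boundary peak. Cut to the strongest 15639 peaks each, the length of the shortest list, the shares within 100 bp were 4 of 6 in starvation, 2 of 6 after depletion and 4 of 5 in control, against 42.6%, 29.0% and 38.2% of all protein-coding genes. The interval of the control share in the cut list (80.0%) runs from 28.4 to 99.5 and includes the share over all genes, as do those of the starvation and depletion shares.

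HDGF summits of the class mostly lay to either side of the start sites. In starved cells 15 members had an HDGF summit within 1 kb of a listed start and 1 had it within 100 bp (6.67%, interval 0.169 to 31.9), against 13.8% of 2437 protein-coding genes. Of the genes with a listed start, 15.4% had an HDGF starvation summit within 1 kb and 2.12% within 100 bp. That gene was MRPL34, at 57 bp from a listed start that lies inside the gene's outer bounds, so MRPL34 does not count as holding an HDGF boundary peak in starvation. In control cells 0 of 19 members had the HDGF summit within 100 bp (interval 0 to 17.6), against 5.23% of 1989 protein-coding genes. Within 1 kb it was found at 12.6% of the genes with a listed start, and within 100 bp at 0.656%. In both conditions the share over all genes was inside the members' interval, so no difference from other genes was detectable within 100 bp. The nearest control summit of a member was 368 bp from a start, at MRPL24. The members' median distance was 583 bp in starvation and 791 bp in control, against 406 bp and 633 bp over all protein-coding genes. Part of the HDGF signal lay at the far end of the gene: the strongest HDGF peak was nearest to the end at 17 members in starvation and to the start at 9. In control it was nearest to the end at 16 members and to the start at 14, and 2 had no listed start. For INTS13 it was nearest to the end at 1 of 6 members in starvation and 0 of 7 in control. After depletion it was nearest to the end at 7 members and to the start at 18, and 2 had no listed start. The same split was not counted over all protein-coding genes, so it cannot be called particular to the class.

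**Figure D3:**
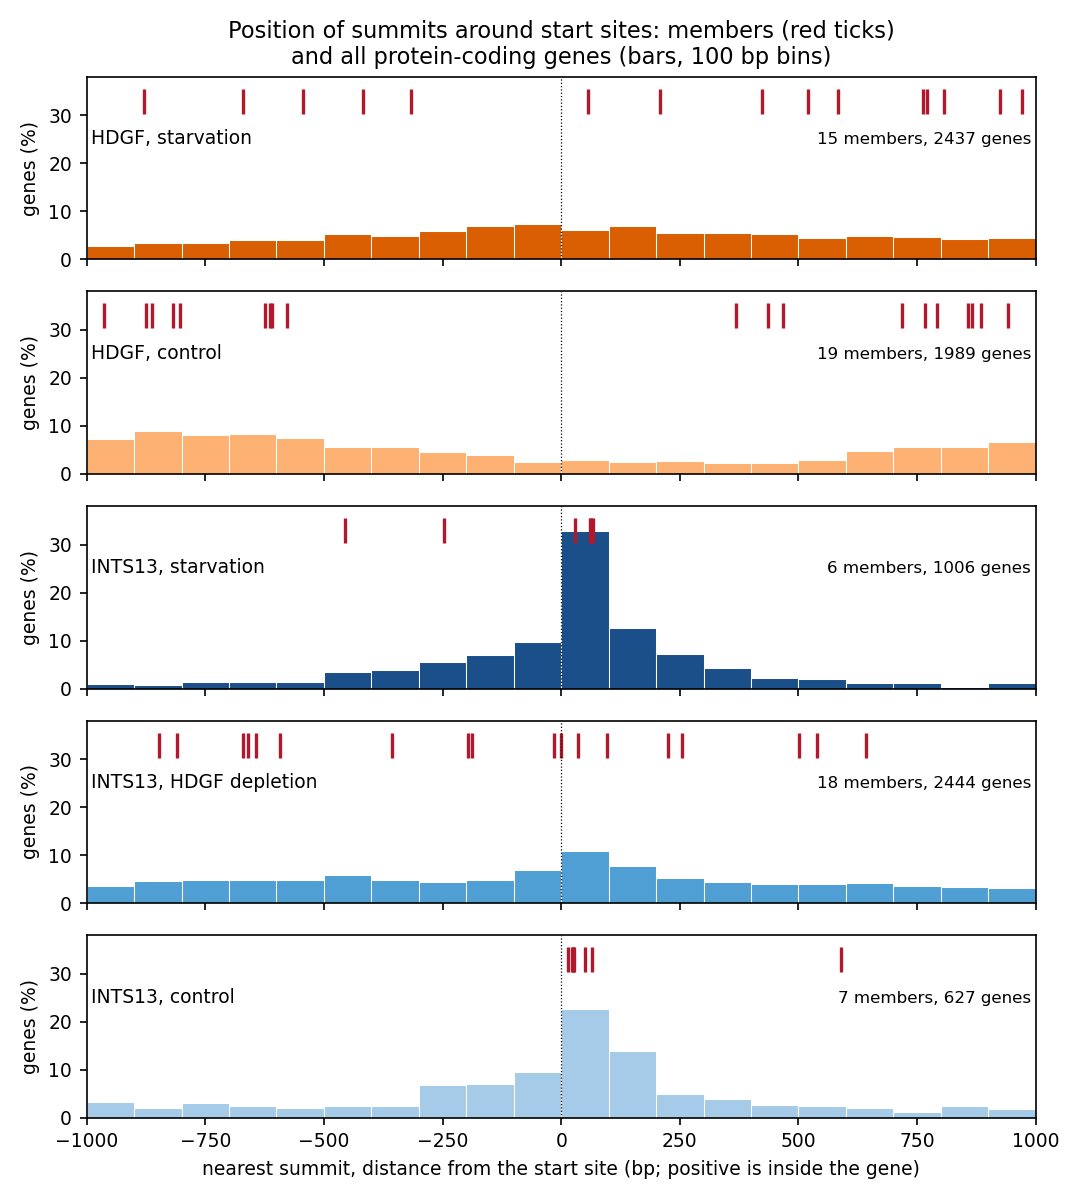
Distance of the nearest summit from a listed start site (horizontal axis, bp, positive inside the gene) in the 5 lists. Bars give, out of the protein-coding genes that had a summit within 1 kb, the share in each bin (vertical axis, percent, 100 bp bins), and red ticks mark single members. In the INTS13 control panel 6 of 7 members lie within 100 bp of the start, and in the HDGF control panel 0 of 19 do.

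**Figure D4:**
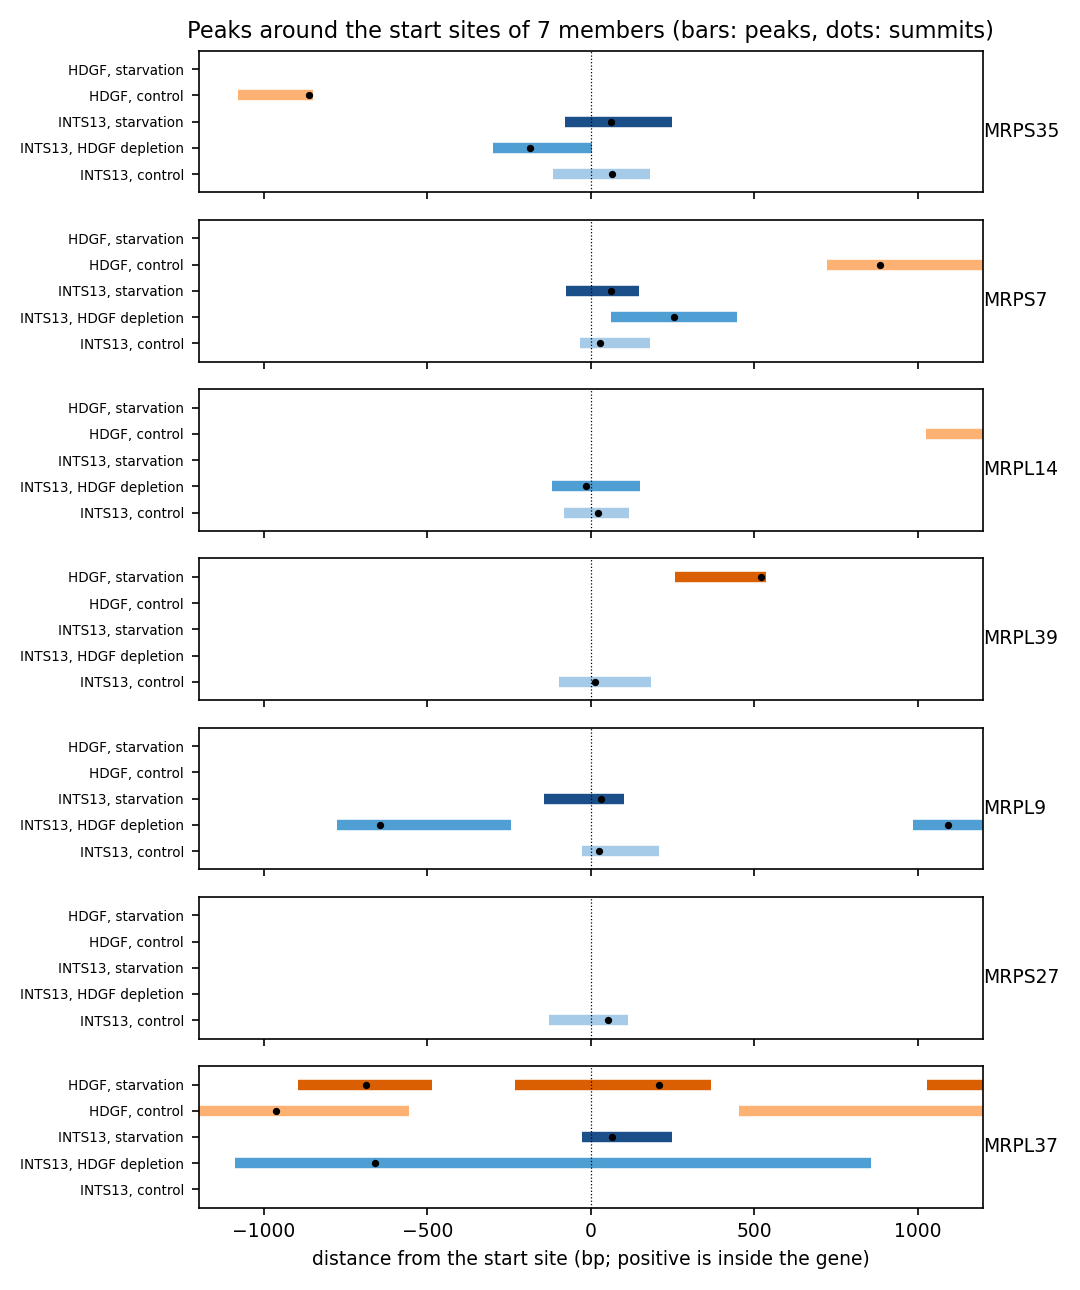
Peaks (bars) and summits (dots) of the 5 lists around the start sites of the 7 members with INTS13 at the start in control or starved cells (horizontal axis, bp from the start, positive inside the gene). INTS13 peaks of control and starved cells cross the start, while HDGF peaks lie to either side of it except at MRPL37 in starvation.

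Many members share their promoter region with another gene. A start on the opposite strand lay within 1 kb of a listed start at 30 of the 69 members (43.5%), against 25.9% of the 15842 protein-coding genes. Of the 6 members with a control INTS13 summit within 100 bp of the start, 5 had such a neighbour, and MRPL39 did not. The neighbours were the lncRNA gene MRPS35-DT for MRPS35, GGA3 for MRPS7, TMEM63B for MRPL14, OAZ3 for MRPL9 and PTCD2 for MRPS27. All 4 members with a starvation summit within 100 bp had one too, CYB5RL in the case of MRPL37. Such neighbours were not counted over all protein-coding genes with INTS13 within 100 bp of a start. These counts therefore cannot be called particular to the class. A summit in such a region cannot be given to 1 of the 2 genes by position alone. MRPL46 and MRPS11 start 320 bp apart on opposite strands and counted the same INTS13 peak after depletion, on chromosome 15 from 88467195 to 88467485, whose summit was 36 bp from the MRPL46 start and 356 bp from the MRPS11 start.

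For HDGF, starved cells were set against control cells to see whether it changes genes without glucose. HDGF was in both lists at 19 members (kept), in the starvation list only at 7 (gained) and in the control list only at 13 (lost). Over all protein-coding genes 10.1% were kept, 11.5% gained and 9.18% lost. The members kept were 59.4% of those with a control peak, against 52.5% over all protein-coding genes.

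The highest of the kept peaks was at MRPL55, a large-subunit protein with a bacterial counterpart. Its starvation peak had a fold of 5.40 (59 reads, −log10 q of 15.5) and was 4131 bp long, against a fold of 3.38 (25 reads) and 2152 bp in control. The 2 summits were 49 bp apart, at the end of the gene. MRPL24, a large-subunit protein known to act early in assembly in bacteria, had a fold of 2.98 in starvation and 4.03 in control, where the peak was 2490 bp long. This control peak lay where the start of MRPL24 meets the end of the HDGF gene on the same strand, with its summit 123 bp from the MRPL24 boundary and 486 bp from that of HDGF. MRPL37 had folds of 3.34 in starvation and 3.90 in control, and MRPS7 had 3.25 in both. MRPL27, MRPL38, MRPS18A and MRPS21 had folds of 2.72 to 3.07 in starvation, and 3.25 each in control.

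These folds are those of the strongest boundary peak in each list, which need not be the same peak. At 12 of the 19 kept members the peaks were at the same end of the gene (63.2%, interval 38.4 to 83.7), against 82.1% of the 2029 kept protein-coding genes. At 10 of the 19 the peaks overlapped, against 57.5%. At MRPS21 the nearest summits were 14 bp apart, at MRPL20 38 bp and at MRPS7 5 bp. At MRPS18A, in contrast, the starvation peak was at the gene's end and the control peak at its start, 16696 bp away.

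The 13 members that lost their HDGF boundary peak in starvation had control folds of 2.47 to 3.38, within the 2.34 to 4.03 of the 19 kept. MRPS16, a small-subunit protein, had the highest of them (3.38, 25 reads). MRPL2, which lies near the peptidyl transferase centre, MRPS25 and MRPS9 followed with 3.12 each, and MRPL14 and MRPL51 with 2.99 each. MRPL53 and MRPS11 had 2.86 each. The other 5 were MRPL15, MRPL18, MRPS14, MRPS35 and MRPL34, at folds of 2.47 to 2.73. At 6 of the 13 a starvation summit still lay within 2500 bp of an end.

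Gained members were led by MRPL12, a large-subunit stalk protein that also binds the mitochondrial RNA polymerase. Its starvation peak had a fold of 3.61 (39 reads) over 1957 bp and lay at the gene's end. MRPS15 had a fold of 3.16, MRPS2 3.07, MRPL36 2.98, MRPS33 2.90, MRPL58 2.54 and MRPL39 2.45. MRPL58 is a peptidyl-tRNA hydrolase built into the large subunit. At 5 of the 7 a control summit lay within 2500 bp of an end, outside the 1 kb limit. Such nearby summits of gained or lost genes were not counted over all protein-coding genes, so they cannot be called particular to the class. With the limit at 2500 bp, 30 members were kept, 4 gained and 18 lost. At that limit 4162 of all 20037 protein-coding genes were kept, 2092 gained and 2978 lost.

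**Figure D5:**
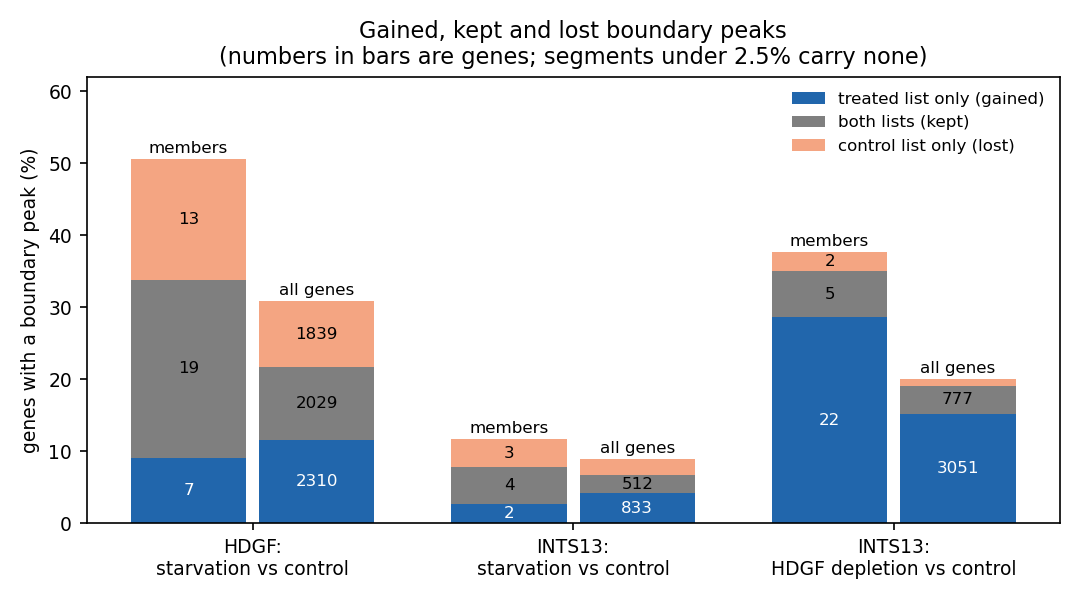
Genes with a boundary peak in the treated list only (blue, gained), in both lists (grey, kept) and in the control list only (orange, lost), as a share of the 77 members (left bar of each pair) and of all protein-coding genes (right bar). Numbers in the bars are genes. After HDGF depletion 22 members are in the INTS13 depletion list only, 5 in both and 2 in the control list only.

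The second comparison asked whether INTS13 changes its place in starvation. INTS13 was kept at 4 members, gained at 2 and lost at 3, against 2.56%, 4.16% and 2.22% of all protein-coding genes. The kept members were MRPS35 (fold 3.82 with 64 reads in starvation, 4.86 with 35 reads in control), MRPL55 (4.11 with 69 reads and 4.05 with 29 reads), MRPS7 (3.07 with 51 reads and 3.92 with 28 reads) and MRPL9 (3.07 with 51 reads and 2.97 with 21 reads). At all 4 some peaks of the 2 lists overlapped and lay at the same end, against 70.7% and 86.7% of the 512 kept protein-coding genes. The 2 folds given for MRPL55 belong to separate peaks, in starvation at the gene's end and in control at its start. At the end, the MRPL55 starvation peak overlapped a lower control peak (fold 3.38, 24 reads). MRPL37 (fold 3.41) and MRPL40 (3.18) were gained. The MRPL40 peak of that fold lay nearer to HIRA (145 bp) than to MRPL40 (667 bp), and a lower one (fold 2.66) lay nearest to MRPL40, at 248 bp. MRPL39 (control fold 4.32), MRPL14 (3.65) and MRPS27 (2.97) were lost, and none of the 3 had a starvation summit within 2500 bp of an end. With starvation came another antibody and a background of 15.2 reads before scaling (7.41 as scored), against 6.40 in control. The part of either in these changes was not tested, and the read counts of the 2 lists are not on 1 scale.

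The third comparison asked whether INTS13 depends on HDGF. After HDGF depletion INTS13 was kept at 5 members, gained at 22 and lost at 2, against 3.88%, 15.2% and 0.893% of all protein-coding genes. MRPL55 had the highest depletion peak of the class (fold 5.58 with 28 reads, −log10 q of 10.1), against 4.05 with 29 reads in control. Its peak was 2871 bp long after depletion and 1141 bp in control. MRPL14 had 4.23 after depletion and 3.65 in control. MRPS35 had 3.66 and 4.86, MRPS7 3.46 and 3.92, and MRPL9 2.69 and 2.97, in depleted and control cells. MRPL39 and MRPS27 were lost.

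Among the 22 gained members MRPS21, a small-subunit protein, had the highest fold (4.23, 21 reads), followed by MRPL51 (4.04, 20 reads). MRPL2, MRPL24, MRPL37 and MRPL41 had 3.85 each, with 19 reads. Of these peaks, that of MRPL2 lay nearer to KLC4 (518 bp, against 750 bp). That of MRPL24 lay nearer to the HDGF gene (171 bp, against 780 bp) and that of MRPL37 nearer to CYB5RL (523 bp, against 660 bp). With each peak given to its nearest coding gene only, INTS13 was at 21 members after depletion (27.3%, against 17.7% of all genes). Then 17 members were gained, against 2872 of the 20037 genes. MRPL43 had 3.66, and MRPS14, MRPS23, MRPS24 and MRPS33 had 3.46 each. None of the 22 had a control INTS13 summit within 2500 bp of an end. An HDGF control peak was present at 13 of the 22, among them MRPS21, MRPL51, MRPL2 and MRPL24, and absent at 9, among them MRPL41, MRPS23 and MRPS24. Over the 3051 protein-coding genes gained after depletion, 42.1% had an HDGF control peak, inside the interval of the members' 59.1% (36.4 to 79.3). Of the depletion list's members, 6 were in no other list, namely MRPL11, MRPL35, MRPL41, MRPL46, MRPS23 and MRPS24.

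List length moved with these counts. The depletion list had 105994 peaks at a background of 4.20 reads, and the control list 31233 peaks at 6.40 reads. Cut to the strongest 15639 peaks each, the lists held INTS13 at 6 members after depletion and at 5 in control, 2 of them kept, 4 gained and 3 lost. The cut lists gave 7.79% of members and 3.73% of all protein-coding genes after depletion, and 5 of the 77 members and 601 of the 20037 genes in control. Gained members were then 5.19% of the class (interval 1.43 to 12.8), against 2.24% of all protein-coding genes, and lost members 3.90%, against 1.51%.

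In control cells INTS13 and HDGF were together at 4 members, INTS13 alone was at 3 and HDGF alone at 28. Over all protein-coding genes these shares were 2.98%, 1.79% and 16.3%. The genes with both were MRPL55, MRPS7, MRPL14 and MRPS35, and those with INTS13 alone MRPL39, MRPL9 and MRPS27. The INTS13 and HDGF peaks overlapped at 1 of the 4, MRPL55, where their summits were 19 bp apart, against 48.8% of the 598 protein-coding genes with both, a share inside the members' interval (0.631 to 80.6). At MRPS7 the INTS13 and HDGF summits were 857 bp apart and at MRPS35 928 bp. At MRPL14 the INTS13 boundary peak was at the start and the HDGF boundary peak at the end, with summits 13247 bp apart. That distance counts boundary peaks only. Another HDGF control peak at MRPL14 (fold 2.60) had its summit 1477 bp inside the start, against 22 bp for INTS13, and was no boundary peak. Within 500 bp of an end, INTS13 stood at all of its 7 control members and HDGF at 13, with MRPL55 the gene in common. Over all protein-coding genes these shares were 3.38%, 10.6% and, for both proteins, 1.43%. The members' share with both was 1.30% (interval 0.0329 to 7.02), near the background.

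MRPL55 and MRPS7 were present in all 5 lists (2.60% of members, against 1.42% of all protein-coding genes). MRPL37, MRPL40 and MRPS35 were in 4 (3.90%, against 2.41%). Both shares are near the background. MRPL55, MRPL9, MRPS35 and MRPS7 were in all 3 INTS13 lists, for which the share over all genes is not given here. Of the members, 30 had no boundary peak in any list (39.0%, against 61.4%), among them MRPL1, MRPL3, MRPL19, MRPS5, MRPS22 and MRPS30. The members nearest the 1 kb limit were, for HDGF, MRPS6 at 972 bp inside and MRPL10 at 1044 bp outside in starvation, and MRPS7 at 884 bp inside and MRPS23 at 1123 bp outside in control. For INTS13 they were MRPL55 at 393 bp and MRPS26 at 1530 bp in starvation, MRPS25 at 857 bp and MRPS31 at 1039 bp after depletion, and MRPL39 at 392 bp and MRPL4 at 2482 bp in control.

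Peaks were dense on chromosomes 1, 13, 22 and X, where 11 of the members lie, 8 of them on chromosome 1. On those chromosomes HDGF was at 7 of the 11 members in starvation and in control, and INTS13 at 4 in starvation, 7 after depletion and 2 in control. Over all protein-coding genes there the shares were 35.3% and 32.0% for HDGF, and 14.4% and 35.7% for INTS13 in starvation and depletion, and for INTS13 in control it was 519 of 3699 genes. On the other chromosomes HDGF was at 28.8% of 66 members in starvation, against 18.6% of all protein-coding genes, and at 37.9% in control, against 16.4%. INTS13 was there at 3.03% of members in starvation (2 genes, MRPS35 and MRPS7), against 4.96%. After depletion it was at 30.3%, against 15.4%, and in control at 7.58%, against 2.67%.

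Member genes are short, with a median length of 8618 bp against 24115 bp over all protein-coding genes, so their 2 ends lie closer together. The HDGF share was highest in the 22 members of at most 5000 bp, at 11 of 22 in starvation and in control, against 26.6% and 19.0% of protein-coding genes of that length. Among the 37 members of 5000 to 20000 bp it was 32.4% in starvation and 43.2% in control, against 27.7%, and 1282 of 5826 genes. Among the 18 longer members it was 16.7% and 27.8%, against 17.0% and 17.9%.

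Other genes of the pathway were looked at by list. Over all protein-coding genes HDGF was at 21.7% in starvation and 19.3% in control. INTS13 was at 6.71% of them in starvation, 19.1% after depletion and 4.77% in control. The 79 cytosolic ribosomal protein genes had HDGF at 38 in starvation (48.1%) and 53 in control (67.1%). They had INTS13 at 3 in starvation, 34 after depletion and 14 in control. Within 100 bp of a start, INTS13 control summits were at 2 of 8 of these genes with a start summit (interval 3.19 to 65.1). The share of mitochondrial members, 6 of 7 (interval 42.1 to 99.6), cannot be tested against it, because their distances set the limit. The 2 intervals overlap. The 5 mitochondrial ribosome genes with other symbols had HDGF at 3 in starvation and 2 in control. Among them, GADD45GIP1, which encodes a large-subunit protein, had INTS13 23 bp inside its start in starvation (fold 3.41) and 85 bp inside it in control (3.65). Translation factors of mitochondria had HDGF at 0 of 13 in starvation and 4 of 13 in control (MTRF1L, MTIF2, TUFM and OXA1L). INTS13 was at MTRFR in starvation, at MTRFR and TSFM after depletion, and at 0 of the 13 in control. Of 32 genes for assembly of the mitochondrial ribosome and mitochondrial gene expression, HDGF was at 7 in starvation and 9 in control. INTS13 was at 2 in starvation (DHX30 and RCC1L), 10 after depletion and 2 in control (RPUSD4 and TFB1M). For these sets of 5, 13 and 32 genes the share over all protein-coding genes was inside the exact interval in every peak list. The RPUSD4 control summit, at a gene for a pseudouridine synthase of mitochondrial RNA, was 71 bp before the start with a fold of 4.05, and the RCC1L starvation summit was 62 bp inside the start.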

How the data were processed

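The series holds 16 ChIP-seq samples of HEK293T cells, 2 labelled replicates in each of 8 groups, 6 of the samples being inputs, with 150 bp paired reads per the labels. Inputs were not analysed here. The submitters' processing notes name the tools MACS2, Bowtie, Picard, Trimmomatic and FastQC, and build hg38. Versions and the handling of replicates and inputs were not stated in the sources used here. A single list was deposited for each ChIP group, and its peak names carry the value 0.05. Each peak has an integer score, a fold over background, and −log10 p and −log10 q values, all deposited by the authors and used only within a list.

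Peaks on chromosomes 1 to 22, X and Y were joined to RefSeq genes (Python 3.11.15, pandas 2.3.3, numpy 2.4.6, scipy 1.17.1, matplotlib 3.10.9). A boundary peak has a summit within 1 kb of either gene end, and each gene in reach was counted. Start sites and promoter windows (GRCh38.p14) came from RefSeq. The background was fitted to folds and p-values and divided by the scale of its list to give reads per position. All distinct folds then gave whole reads within 0.05. Depth beyond this is unknown. The joins and fits were tested on simulated data. Named genes were the 10 members of highest −log10 q per list, up to 8 kept, 8 lost and 8 gained by −log10 q per comparison, members with INTS13 in control or starvation, members in 4 or 5 lists and those nearest the limit. The members and lists were chosen with earlier results of these data known. Alternatives were other windows, any overlapping base, start sites only, −log10 q of at least 2, lists of equal length and, chosen after seeing the data, the nearest coding gene only and leaving out chromosomes 1, 13, 22 and X.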

Additional observations from a re-analysis of the deposited data

How the results depend on the processing

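Shares over all protein-coding genes follow in brackets. With a window of 500 bp, HDGF was at 16 members in starvation (13.4%) and 13 in control (10.6%) with 5 kept (4.14%), INTS13 was at 14 after depletion (11.8%), and INTS13 and HDGF shared 1 in control (1.43%). With 2500 bp, HDGF was kept at 30 (20.8%) and the proteins shared 7 (5.91%). With lists cut to 15639 peaks, HDGF was at 9 in starvation (6.85%) and 4 in control (3.77%) with 2 kept (301 genes), INTS13 was at 6 after depletion (3.73%) with 2 kept (1.49%), the proteins shared 1 (0.958%), and the HDGF starvation share within 100 bp of a start was 0% (12.3%). With start sites only, HDGF was at 15 in starvation (15.4%) and 19 in control (12.6%) with 7 kept (5.71%). Without chromosomes 1, 13, 22 and X (chosen after seeing the data), INTS13 was at 2 in starvation (4.96%), both kept (1.40%), and 3 were kept after depletion (2.03%). The cause of the changes between windows was not tested. The other 62 values under these alternatives, the −log10 q limit, any overlapping base and the nearest coding gene stayed within 1.5 times. No paired analysis was possible because each group has a single pooled list, and for the same reason no replicate could be left out. Summits of 13 to 69 reads limit what can be seen: a member without a peak may lie just under the authors' threshold.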
